A study of Mus musculus with 24 samples.

Results

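The comparison described here is between lymphoid progenitors (LPs) carrying guides against *Cbfb* (sgCbfb) and LPs carrying control guides (sgCont) in the second of the study's QuantSeq experiments, both without Notch stimulation. Its members are the libraries labelled sgCbfb replicates 1 to 3 and sgCont replicates 1 to 3 of that experiment, which makes 6 of the 24 libraries in the series. The question it addresses is which transcripts change when LPs that have not met a Notch ligand lose CBFβ, the shared partner of the RUNX transcription factors.

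Both groups come from Cas9-LPs, which are fetal liver progenitor lines from mice that lack *Ebf1* and carry a Rosa26-Cas9 knock-in. *Ebf1* deficiency and Cas9 expression are therefore shared by sgCbfb and sgCont cells. The cells grew on OP9 stroma that had been treated with mitomycin C, in medium with mouse SCF, human Flt3L and human IL-7, and received retroviruses that encode the guide RNA and a human NGFR marker. Pooled guides were aimed at *Cbfb* or, for sgCont, at luciferase. Cells positive for hNGFR and CD45 were sorted 5 days later, and QuantSeq, which reads the 3' ends of mRNAs, was run on their RNA. The study calls its replicates biologically independent, but the labels do not say whether they were separate transductions or cultures, so the p values given here measure the spread between these libraries, which may be technical. Reads counted on genes were 3791666, 3385934 and 4106595 in the sgCont libraries and 3354483, 3729180 and 3969498 in the sgCbfb libraries. Levels are in CPM, counts per 1e6 of those reads. Where 3 values of a group are listed they follow replicates 1 to 3. A single read is 0.243 to 0.298 CPM, and a library without a read of a gene bounds its level at 0.731 to 0.894 CPM, depending on depth. Intervals and floors given here cover counting error only.

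CBFβ does not bind DNA itself. It forms heterodimers with RUNX1, RUNX2 or RUNX3, raises their affinity for DNA and protects them from degradation, so that losing it weakens all members of the family together. RUNX proteins recognise a short motif with the core letters TGTGGT, recruit both activators and corepressors of the Groucho/TLE family, and are needed in blood stem cells, megakaryocytes, B and T lymphocytes and innate lymphoid cells.

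The targeted gene was read first. *Cbfb* (ENSMUSG00000031885, chromosome 8, 105170674 to 105217989, + strand, GRCm38, GENCODE M21) was 110.0, 109 and 124 CPM in sgCont and 48.3, 41.6 and 55.4 CPM in sgCbfb libraries. All 3 sgCbfb libraries lay under all 3 sgCont libraries, and the mean went from 114 ± 8.37 to 48.4 ± 6.93 CPM (SD of 3 libraries; limma log2 fold change -1.23, standard error 0.16, Benjamini-Hochberg adjusted p = 4.3e-06). Reads at a 3' end count transcripts whether or not they carry an edit, so the share of cells with an edited *Cbfb* cannot be told from these values. *Runx1* (ENSMUSG00000022952, chromosome 16, 92601466 to 92826149, - strand), which encodes the main RUNX protein of early lymphoid cells, was 249, 283 and 239 CPM in sgCont and 583, 650.3 and 561 CPM in sgCbfb libraries. Its lowest sgCbfb library was above its highest sgCont library, a rise from 257 ± 22.98 to 598 ± 46.7 CPM (SD of 3 libraries; limma log2 fold change 1.22, standard error 0.10, Benjamini-Hochberg adjusted p = 1.2e-09). *Runx2* was 46.7, 56.7 and 46.5 CPM in sgCont and 67.7, 88.8 and 65.8 CPM in sgCbfb libraries, and the groups did not overlap (limma, Benjamini-Hochberg adjusted p = 0.025). The difference, 0.55 on the log2 scale, was under the fold threshold defined below. *Runx3* was 348, 322 and 338 CPM in sgCont and 331, 356 and 339 CPM in sgCbfb libraries, with overlapping groups (limma, Benjamini-Hochberg adjusted p = 0.92). In a list of RUNX factors and their corepressors, of the 14 genes tested out of 15, *Cbfb* and *Runx1* were the 1 called lower and the 1 called higher, where 1.65% and 2.67% of all genes tested were called. *Cbfb* is the gene the guides target. The corepressor genes *Tle3* and *Tle4* had means of 182 and 65.6 CPM in sgCont and 156 and 72.8 CPM in sgCbfb cells, and neither was called.

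**Figure D1:**
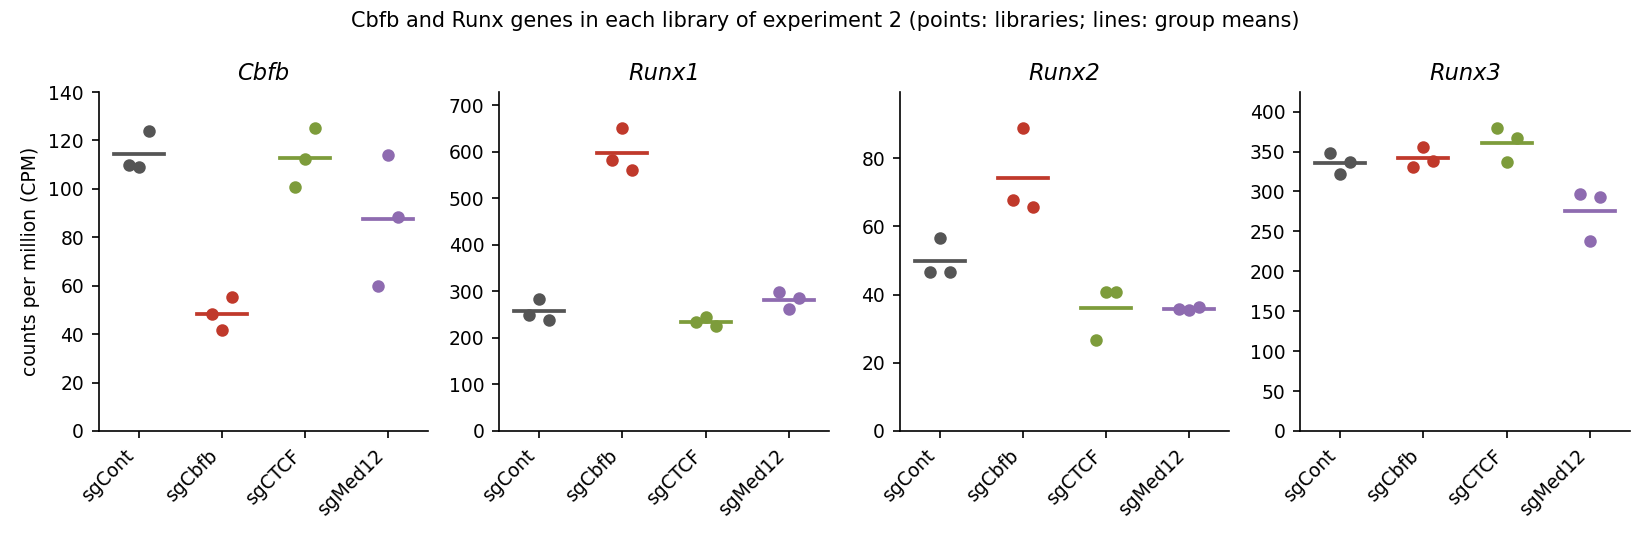
Levels of *Cbfb*, *Runx1*, *Runx2* and *Runx3* in CPM (vertical axis, from 0) in each of the 12 libraries of the second experiment, with points for libraries and lines for group means. The sgCbfb libraries are the lowest for *Cbfb* (mean 48.4 CPM) and the highest for *Runx1* (mean 598 CPM).

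The LP label was then read against marker genes. The lymphoid progenitor receptors *Il7r* and *Flt3* had means of 165 and 276 CPM in sgCont cells and 101 and 219.7 CPM in sgCbfb cells. *Cd93*, a surface marker of early progenitors, was at 215 and 358 CPM, and *Spi1*, which encodes PU.1, was at 118 and 103 CPM. Transcripts of *Ebf1* were still read, at 276 and 188 CPM, which 3' reads can show where a gene is disrupted upstream of its end. The B-cell genes downstream of EBF1 were low or absent, with *Pax5* at 8.58 and 0.932 CPM and no read of *Cd79a* in any of the 6 libraries. The T-cell genes *Cd3e* and *Themis* also had no read in them, and *Cd8a* had a mean of 0.888 CPM in sgCbfb cells and none in sgCont cells. Other genes used by T cells were read, with means of 369.6 and 47.5 CPM for *Trdc*, 102 and 6.55 CPM for *Lck* and 55.1 and 2.95 CPM for *Bcl11b* in sgCont and sgCbfb cells, and 3 of 35 genes in a list of the T-cell receptor complex and its signalling had no read in the 6 libraries. The markers thus match early lymphoid progenitors that transcribe part of the T-cell programme without *Cd3e*. These 3 genes were lower in sgCbfb cells, but genes of that list went both ways. Of its 28 genes tested, 7 were called lower and 5 higher, where 1.65% and 2.67% of all genes were called.

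Across the transcriptome, 13177 genes that reached 1 CPM in 3 or more of the experiment's 12 libraries were tested in 1 limma fit. A gene was called when its Benjamini-Hochberg adjusted p was under 0.05, the log2 ratio of its group means exceeded 1 in size and either group had a mean over 10 CPM, thresholds taken from the study. In sgCbfb cells 352 genes were called higher, 2.67% of those tested, and 218 were called lower, 1.65%. Of the 570 calls, 61.8% were thus in the higher direction, while the median log2 fold change over all genes tested was -0.01. The 3 libraries of each group did not overlap for 349 of the 352 genes called higher and for 214 of the 218 called lower. These genes were chosen by their p in the same libraries. Their separation therefore largely follows from the call and is no further evidence. An exact two-sided permutation test on 3 against 3 libraries cannot give a p under 0.1, so the calls rest on the spread that limma pools over genes. The cells were sequenced in bulk, where fewer cells of a type and less RNA per cell cannot be told apart.

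**Figure D2:**
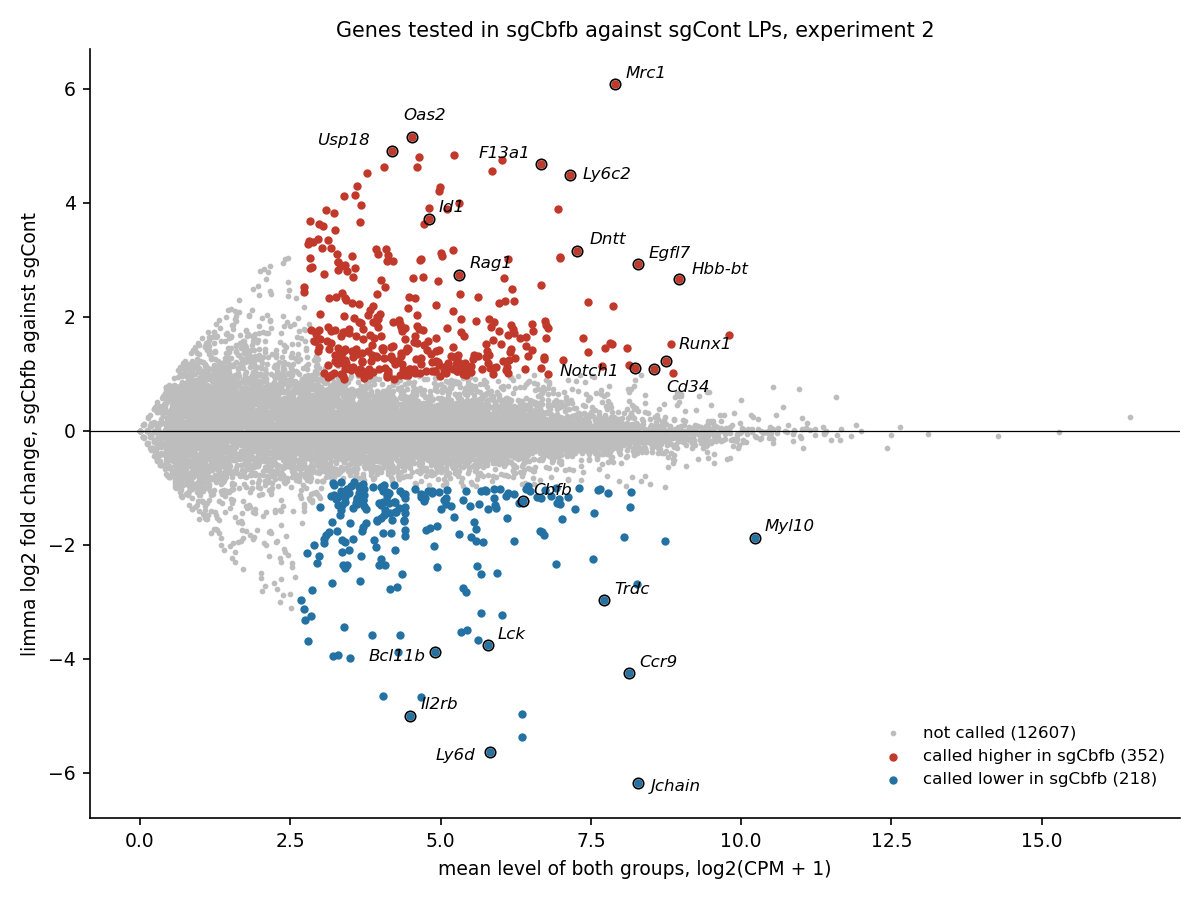
Limma log2 fold change of sgCbfb against sgCont LPs (vertical axis) against the mean level of both groups in log2(CPM + 1) (horizontal axis) for the 13177 genes tested. The 352 genes called higher are red, the 218 called lower are blue, and circled points are named genes, from *Mrc1* at 6.08 to *Jchain* at -6.18.

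By limma's log2 fold change the largest fall was in *Jchain* (ENSMUSG00000067149, chromosome 5, 88519809 to 88527891, - strand), which encodes the joining chain of secreted immunoglobulins and is transcribed in early lymphoid progenitors and plasmacytoid dendritic cells. It was 613, 665 and 570.1 CPM in sgCont and 4.47, 9.38 and 9.82 CPM in sgCbfb libraries. The sgCont libraries sat close together and the sgCbfb libraries were lower by 78.02-fold on average (limma log2 fold change -6.18, standard error 0.17, Benjamini-Hochberg adjusted p = 1.7e-18). *Ly6d* (ENSMUSG00000034634, chromosome 15, 74762056 to 74763620, - strand), a surface marker of progenitors biased to the B lineage, was 115, 137 and 77.7 CPM in sgCont and 0.298, 2.95 and 1.01 CPM in sgCbfb libraries. It fell by 5.63 in log2 terms, to almost no reads (limma, Benjamini-Hochberg adjusted p = 3.8e-14). *Ccr9* (ENSMUSG00000029530, chromosome 9, 123678439 to 123784330, + strand), the chemokine receptor that guides progenitors to the thymus and the gut, was 627, 536 and 439.5 CPM in sgCont and 27.4, 24.4 and 28.97 CPM in sgCbfb libraries. This was a 19.8-fold difference between groups that stayed far apart (limma log2 fold change -4.25, standard error 0.16, Benjamini-Hochberg adjusted p = 3.8e-16). *Il2rb* (ENSMUSG00000068227, chromosome 15, 78479256 to 78495271, - strand), which encodes the β chain shared by the IL-2 and IL-15 receptors, was 30.1, 55.8 and 42.1 CPM in sgCont and 0.298, 0.804 and 0 CPM in sgCbfb libraries. Only 4 reads of it were left in the sgCbfb group, against a mean of 42.7 CPM in sgCont cells (limma, Benjamini-Hochberg adjusted p = 1.1e-13).

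The transcription factor gene *Bcl11b* (ENSMUSG00000048251, chromosome 12, 107910403 to 108003602, - strand), required for commitment to the T lineage, was 57.5, 66.7 and 41.2 CPM in sgCont and 2.98, 1.34 and 4.53 CPM in sgCbfb libraries. The highest sgCbfb library was far under the lowest sgCont library, and the fall was 18.7-fold (limma log2 fold change -3.89, standard error 0.23, Benjamini-Hochberg adjusted p = 2.3e-12). *Cd7*, a surface molecule of early T and natural killer cells, had 2 reads in the whole sgCbfb group. Its values were 16.9, 22.4 and 12.7 CPM in sgCont and 0.298, 0 and 0.251 CPM in sgCbfb libraries, a ratio of 94.7-fold, with a 95% counting interval from 25.7 to 782. *Smim5*, a small membrane protein gene, had 3 reads in the sgCbfb group and was 24.8, 38.4 and 28.98 CPM in sgCont and 0, 0.536 and 0.251 CPM in sgCbfb libraries, a ratio of 117-fold, with a 95% counting interval from 38.00 to 546. *Cd163l1*, a scavenger receptor gene related to the WC1 receptors of γδ T cells, had 1 read in the sgCbfb group and 16.1, 21.9 and 11.2 CPM in the sgCont libraries. The ratio of its means was 165-fold, with a 95% counting interval from 31.4 to 7041. It lies beside *5830411N06Rik* on chromosome 7, another gene of scavenger receptor cysteine-rich domains, which fell from 159 ± 42.1 to 3.07 ± 1.81 CPM (SD of 3 libraries, p adjusted by Benjamini-Hochberg from limma = 1.1e-15). Among the others in this group were *C1ql2*, a complement C1q-like protein gene, from 158 to 4.12 CPM (limma, Benjamini-Hochberg adjusted p = 2.1e-16), and *Chdh*, for choline dehydrogenase, from 47.8 to 1.13 CPM (limma, Benjamini-Hochberg adjusted p = 7.2e-12). *Ddc*, for aromatic L-amino acid decarboxylase, completes these 12 falls, from 20.1 to 0.346 CPM (limma, Benjamini-Hochberg adjusted p = 1.1e-10). All 12 were also called lower in LPs of the first experiment, as were 68 of all 218 genes called lower here. Of all genes tested there, 0.597% were called lower.

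Among the genes called lower, the largest difference in CPM was that of *Myl10*, a myosin light chain gene that marks early lymphoid cells, which was 1982, 1695 and 1934 CPM in sgCont and 663, 452 and 436 CPM in sgCbfb libraries. Its sgCbfb libraries were all under its lowest sgCont library (limma log2 fold change -1.88, standard error 0.14, Benjamini-Hochberg adjusted p = 1.7e-10). The δ constant region of the T-cell receptor, *Trdc*, which is transcribed before rearrangement in progenitors, was 321, 374 and 413 CPM in sgCont and 33.7, 47.7 and 61.2 CPM in sgCbfb libraries. That fall was 7.77-fold (limma, Benjamini-Hochberg adjusted p = 1.4e-13). *Cox6a2*, a respiratory chain subunit typical of muscle and of plasmacytoid dendritic cells, fell from 534 ± 86.3 to 81.2 ± 5.62 CPM (SD of 3 libraries), and *Nrgn*, the calmodulin-binding protein neurogranin, from 676 ± 38.4 to 175 ± 1.42 CPM. Neither overlapped between the groups (limma, Benjamini-Hochberg adjusted p = 1.5e-15 for *Cox6a2* and 2.2e-12 for *Nrgn*).

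Of the genes that rose, limma gave the largest log2 fold change to *Mrc1* (ENSMUSG00000026712, chromosome 2, 14229392 to 14332057, + strand), the mannose receptor CD206 of macrophages, at 4.22, 8.86 and 5.60 CPM in sgCont and 508, 460.2 and 447 CPM in sgCbfb libraries. It was nearly silent in every control library and among the abundant transcripts of every sgCbfb library, 75.7-fold higher (limma log2 fold change 6.08, standard error 0.27, Benjamini-Hochberg adjusted p = 8.6e-15). *F13a1* (ENSMUSG00000039109, chromosome 13, 36867178 to 37050244, - strand), the A subunit of coagulation factor XIII, made by monocytes and megakaryocytes, was 7.38, 4.72 and 8.04 CPM in sgCont and 166, 228 and 188 CPM in sgCbfb libraries. It rose 28.9-fold, with every sgCbfb library far above the controls (limma, Benjamini-Hochberg adjusted p = 5.1e-13). *Ly6c2* (ENSMUSG00000022584, chromosome 15, 75108158 to 75111970, - strand), the surface protein Ly6C of monocytes and activated lymphocytes, was 8.97, 14.2 and 10.5 CPM in sgCont and 294, 289.6 and 228 CPM in sgCbfb libraries. It was 24.1-fold higher with no overlap (limma, Benjamini-Hochberg adjusted p = 2.5e-13). Its near-identical neighbour *Ly6c1* had means of 0.186 and 8.78 CPM, and how reads that fit both genes were assigned is not stated. The other 9 of the 12 rises with the largest fold change were genes known to respond to interferon, and are taken up further on. Unlike the 12 falls, these rises were called only in part in LPs of the first experiment. *Oas2*, *Usp18*, *Ifi27l2a*, *Oasl2*, *Oas3* and *Ifit1* were not called there, and the others were called higher.

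Among the genes called higher with the largest difference in CPM, *Nfkbia*, which encodes the NF-κB inhibitor IκBα, was 457, 433 and 387 CPM in sgCont and 1351, 1439 and 1286 CPM in sgCbfb libraries. All sgCbfb libraries were above all sgCont libraries by about the same amount (limma log2 fold change 1.67, standard error 0.12, Benjamini-Hochberg adjusted p = 1.1e-10). *Hbb-bt*, an adult β-globin gene, was 127, 134 and 143 CPM in sgCont and 952, 792 and 845 CPM in sgCbfb libraries. It rose 6.41-fold (limma, Benjamini-Hochberg adjusted p = 5.1e-13), while its near-identical neighbour *Hbb-bs* and the α-globin genes *Hba-a1* and *Hba-a2* had means of 0.0993, 0.168 and 0 CPM in sgCbfb cells and 0 in sgCont cells. *Egfl7*, a secreted factor of endothelial and stem cells whose gene hosts the microRNA miR-126, was 82.8, 79.7 and 55.8 CPM in sgCont and 595, 543 and 513 CPM in sgCbfb libraries. The groups were apart by 7.56-fold (limma, Benjamini-Hochberg adjusted p = 1.3e-14). *Reep5*, which shapes the endoplasmic reticulum, rose from 233 ± 20.3 to 679 ± 117 CPM (SD of 3 libraries, p adjusted by Benjamini-Hochberg from limma = 2.4e-10).

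Promoter sequences of the 12 named rises and the 12 named falls of largest limma fold change were read for the RUNX core motif, because the protein lost is the partner that lets RUNX bind it. The motif TGTGGT was searched on both strands, its reverse complement being ACCACA, in windows from 250 bases before to 50 after the annotated start. RefSeq windows were matched by symbol for 259 of the 352 genes called higher and 156 of the 218 called lower. The motif was in the windows of 48 of these 259 (18.5%) and 42 of these 156 (26.9%), and of 1422 of the 9370 tested genes with a window (15.2%). A comparison of these shares is void, because fewer than 80% of the genes of each set have a window. Of all 27025 genes with a window, 18.9% hold the motif, as do 16.8% of all 32851 windows. Of the 12 named rises, 8 have a window and 2 of these hold the motif, *Oasl2* and *Ly6c2*, and of the 12 named falls, 8 have a window and 0 hold it, which is too few genes to stand for the called sets. The windows of *Oasl2* (chr5:114896684-114896983, + strand) and *Ly6c2* (chr15:75111922-75112221, - strand) are given 5' to 3' on the gene's strand in GRCm38.p6, from RefSeq, with the motif or its reverse complement in capitals.
Oasl2: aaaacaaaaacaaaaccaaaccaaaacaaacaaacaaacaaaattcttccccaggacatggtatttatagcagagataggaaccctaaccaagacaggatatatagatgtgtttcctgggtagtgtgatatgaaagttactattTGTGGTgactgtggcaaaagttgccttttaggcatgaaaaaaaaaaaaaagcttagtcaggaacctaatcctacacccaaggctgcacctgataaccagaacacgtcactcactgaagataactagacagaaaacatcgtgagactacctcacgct
Ly6c2: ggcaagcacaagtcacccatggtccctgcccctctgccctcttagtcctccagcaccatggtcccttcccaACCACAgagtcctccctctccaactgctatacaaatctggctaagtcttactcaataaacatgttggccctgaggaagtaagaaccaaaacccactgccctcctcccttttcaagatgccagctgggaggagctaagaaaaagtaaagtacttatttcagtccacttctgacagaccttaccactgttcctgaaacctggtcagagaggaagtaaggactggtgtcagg
*Oasl2* has 1 match, on the gene's strand, and the window shown for *Ly6c2*, which has 2 windows that both hold the motif, has 1 on the opposite strand. A match is a description, not a site or a cause, and a window without one says only that these letters are not in it.

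The same guides were compared in LPs of the first experiment, whose libraries are separate from these. Reads per library there were fewer: the median depth in the second experiment was 2.35 times that of the first for sgCont and 2.63 times for sgCbfb. By the same rule 145 of 13239 genes were called higher there, 1.10%, and 79 lower, 0.597%. Both experiments called 124 genes higher, which is 35.2% of the second experiment's list and 85.5% of the first's, and 68 genes lower, 31.2% and 86.1%. The 124 became 79 without sgCbfb replicate 1 of the first experiment and 76 without moderated variances. No gene was called higher in one experiment and lower in the other. Among calls of the second experiment, 339 of 352 higher and 213 of 218 lower changed with equal sign in the first. Across the 570 called genes the log2 fold changes of the experiments had a Pearson r of 0.88 and a Spearman rho of 0.85, and across 8268 genes over 10 CPM in a group of each experiment r was 0.76 and rho 0.54. Genes are not independent replicates, and the 570 were chosen for their change in one of the sets compared. Among them the median size of the fold change was 1.51 in the second and 1.10 in the first experiment, while over the 8268 genes, not chosen for a change, it was 0.18 and 0.21. The tables were normalised separately, so the difference between experiments was not tested.

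Single genes differed in either direction. *Jchain* went from 778 to 41.2 CPM in the first experiment and from 616 to 7.89 CPM in the second, so more of it was left in the first. *Ccr9* went from 989 to 235 CPM in the first, against 534 to 26.9 CPM in the second. *Mrc1* reached 221 CPM in sgCbfb LPs of the first and 472 CPM in those of the second experiment, from similar control levels. *Cbfb* itself was at 86.5 and 40.2 CPM in the first experiment. *Myl10*, called lower here, had means of 1350.1 and 875 CPM there and missed the fold threshold. Other genes had the larger limma log2 fold change in the first experiment, among them *Csf2rb2* (3.08 there, 2.35 in the second). *Ly6d* had values of -5.97 in the first and -5.63 in the second. Its sgCbfb means were near the floor in both, at 1.37 and 1.42 CPM, so these values do not show which fall was larger. *Cd7* had no read in sgCbfb LPs of the first experiment. Its limma value there, -4.77 against -3.93 in the second, is set by the 1 CPM added before the log and by the control level. These values of *Cd7* therefore do not show which fall was larger.

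**Figure D3:**
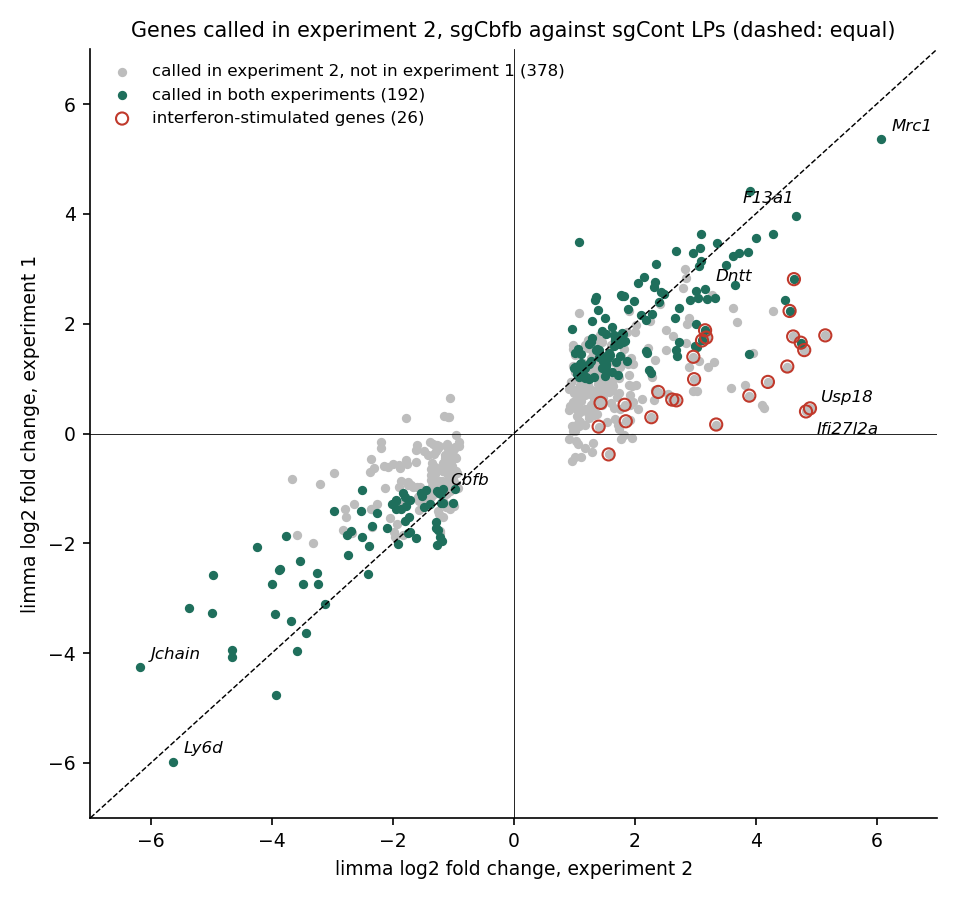
Limma log2 fold change of sgCbfb against sgCont LPs in the second experiment (horizontal axis) and the first (vertical axis) for the 570 genes called in the second, with equal values on the dashed line. Green points are the 192 genes called in both, and red circles are the 26 called interferon-stimulated genes, 5 of which were called in the first experiment.

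Gene lists were then read, each against the 2.67% called higher and 1.65% called lower among all genes tested. Genes of the T-cell receptor complex and its signalling moved in both directions. Of the 28 genes tested out of 35, 7 were called lower and 5 higher, and the median log2 fold change was -0.44, against -0.01 over all genes. In the first experiment 6 of 32 were called higher and 3 lower, where 1.10% and 0.597% of all genes were called. The median there was 0.42, so the list as a whole has no common direction. Its summed level was 1803, 1713 and 1881 CPM in sgCont and 1789, 1983 and 1860.4 CPM in sgCbfb libraries of the second. The falls include *Trdc* and *Cd7*, given above. *Lck*, the kinase that starts T-cell receptor signalling, was 99.2, 117 and 88.2 CPM in sgCont and 5.37, 6.97 and 7.30 CPM in sgCbfb libraries. It was 15.5-fold lower with the groups far apart (limma, Benjamini-Hochberg adjusted p = 4.4e-16). The α constant region *Trac*, transcribed here without a rearranged receptor being shown, was 39.03, 28.1 and 22.6 CPM in sgCont and 1.79, 4.83 and 4.28 CPM in sgCbfb libraries. Its fall was 8.24-fold (limma, Benjamini-Hochberg adjusted p = 2.4e-08).

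The rises were *Dntt*, *Rag1*, *Rag2*, *Lcp2* and *Trgc1*, the last of which was named after its values were seen. *Dntt* (ENSMUSG00000025014, chromosome 19, 41029275 to 41059525, + strand), the terminal transferase that adds bases at receptor gene junctions, was 27.2, 39.3 and 25.3 CPM in sgCont and 303, 287 and 243 CPM in sgCbfb libraries. Each sgCbfb library was above each sgCont library by a wide margin, 9.08-fold on average (limma log2 fold change 3.16, standard error 0.17, Benjamini-Hochberg adjusted p = 5.1e-13). *Rag1* was 11.6, 12.1 and 5.36 CPM in sgCont and 68.6, 54.2 and 80.1 CPM in sgCbfb libraries, and *Rag2*, its partner in the recombinase, was 10.8, 12.1 and 14.6 CPM in sgCont and 27.1, 24.1 and 30.2 CPM in sgCbfb libraries. Both rose, *Rag1* by 2.74 and *Rag2* by 1.06 in log2 terms (p adjusted by Benjamini-Hochberg from limma = 1.8e-08 and 0.0033). *Lcp2*, the adaptor SLP-76 downstream of the receptor kinases, was 2.11, 2.66 and 4.38 CPM in sgCont and 43.5, 43.4 and 57.4 CPM in sgCbfb libraries. It was low in all controls and 15.8-fold higher with sgCbfb (limma, Benjamini-Hochberg adjusted p = 5.1e-09). The γ constant region *Trgc1* was at 309 and 624 CPM (limma log2 fold change 1.02, standard error 0.12, Benjamini-Hochberg adjusted p = 5.3e-07), at the fold threshold, and lost its call without sgCbfb replicate 2 or sgCont replicate 2. Its close relatives *Trgc2* and *Trgc4* were not called, at 385 and 390.0 CPM for *Trgc2*.

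Among transcription factors of the T lineage, of the 20 genes tested out of 22, 2 were called higher and 1 lower, with a median log2 fold change of 0.01. The fall was in *Bcl11b*, described above. The rises were in *Zfpm1*, which encodes the GATA cofactor FOG1, and in *Zbtb7b*, the ThPOK gene, which was 8.18, 9.15 and 3.65 CPM in sgCont and 23.3, 27.1 and 19.1 CPM in sgCbfb libraries (limma, Benjamini-Hochberg adjusted p = 0.00027). *Gata3*, the GATA factor of early T cells, was at 20.1 and 23.5 CPM and was not called. *Tcf7*, which encodes TCF-1, was at 1.85, 2.36 and 3.41 CPM in sgCont replicates 1 to 3 and had no read in the sgCbfb libraries. That is at least 3.10-fold lower, and its level was under the 10 CPM that a call needs. In the Notch pathway 1 of 22 tested genes, out of 27, was called higher and 0 lower, near the 2.67% and 1.65% of all genes. That gene was *Notch1* (ENSMUSG00000026923, chromosome 2, 26457903 to 26516663, - strand), the receptor of the T-lineage decision, at 201, 214 and 153 CPM in sgCont and 396, 455 and 372 CPM in sgCbfb libraries. All sgCbfb libraries were above all controls (limma log2 fold change 1.11, standard error 0.12, Benjamini-Hochberg adjusted p = 1.6e-07), and without sgCont replicate 3 the fold change of 0.96 ended the call. The Notch target genes *Hes1* and *Dtx1* had means of 2.35 and 0 CPM in sgCont and 6.63 and 0.0893 CPM in sgCbfb cells. Neither reached the 10 CPM that a call needs, so the lack of a call does not speak to their change.

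**Figure D4:**
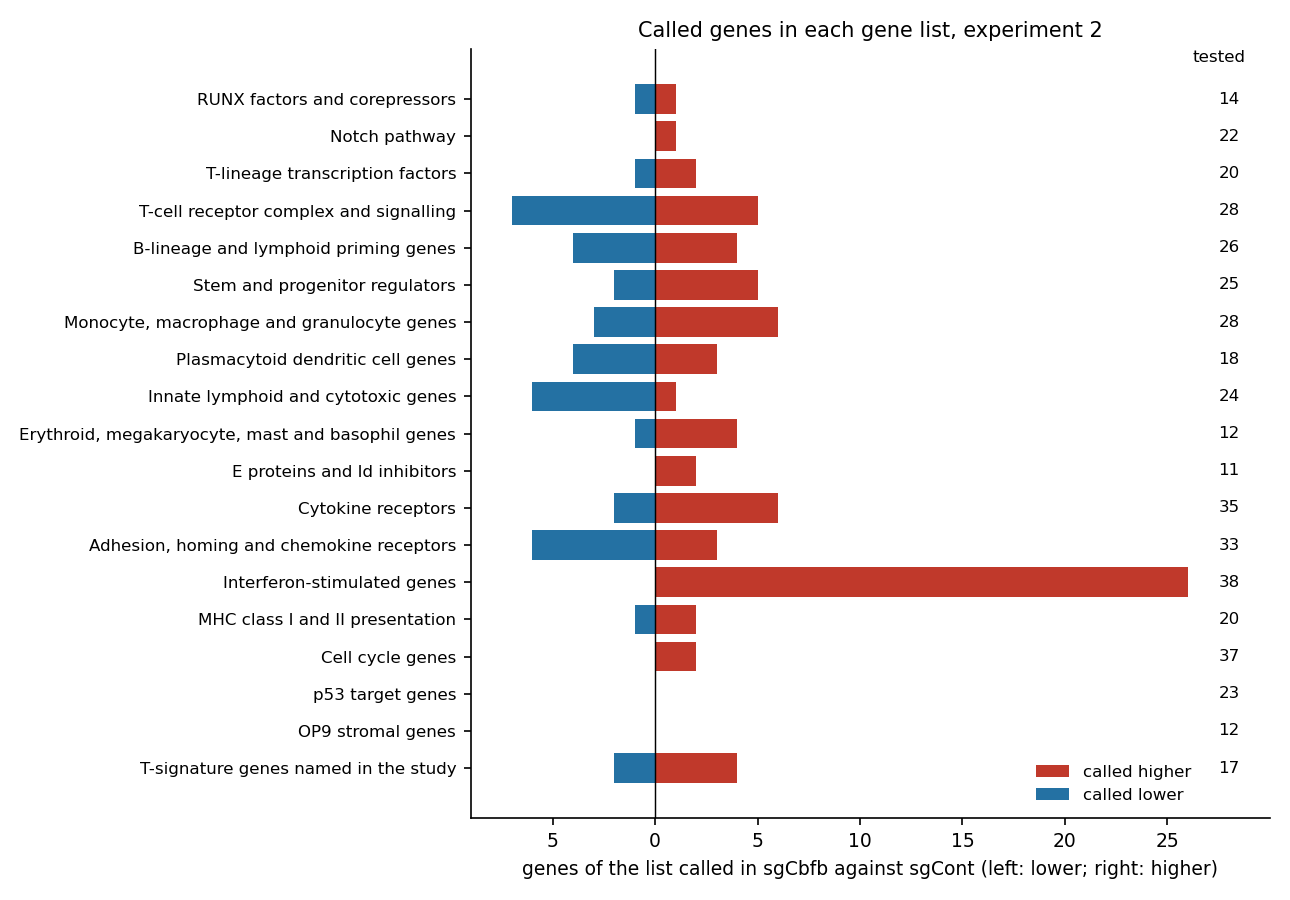
Number of genes called higher (red, right of 0) and lower (blue, left of 0) with sgCbfb in each of 19 gene lists, with the number tested at the right edge. The list of interferon-stimulated genes has the most calls, 26 of 38 higher and 0 lower, and the lists of p53 target and OP9 stromal genes have 0 in either direction.

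Genes of B-lineage and lymphoid priming were split as well, 4 higher and 4 lower of the 26 genes tested out of 37, with a median log2 fold change of -0.33. Its rises were *Dntt*, *Rag1*, *Rag2* and *Foxo1*, which encodes a factor that activates *Rag* and *Il7r* genes. *Foxo1* was 4.22, 4.72 and 5.36 CPM in sgCont and 13.7, 16.9 and 12.8 CPM in sgCbfb libraries, which is low in level but without overlap (limma, Benjamini-Hochberg adjusted p = 0.00047). The falls were *Jchain*, *Ly6d*, the μ heavy chain constant region *Ighm* and *Bach2*, a repressor of plasma cell and myeloid genes. *Ighm* was 305, 262 and 223 CPM in sgCont and 129, 129 and 119.9 CPM in sgCbfb libraries, 2.09-fold lower on average (limma, Benjamini-Hochberg adjusted p = 2.2e-06). Both *Ighm* and *Bach2* were near the fold threshold. *Bach2*, at 34.1 and 14.98 CPM, was not called without sgCont replicate 2 (log2 fold change -0.92), and *Ighm* without sgCont replicate 1 (-0.93).

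Regulators and markers of stem and progenitor cells gave 5 calls higher and 2 lower among the 25 genes tested out of 32, with a median log2 fold change of -0.01. *Ly6a*, the stem cell antigen Sca-1, which interferon also induces, was 8.70, 31.01 and 8.04 CPM in sgCont and 299.9, 283 and 107 CPM in sgCbfb libraries. It rose 14.4-fold, and sgCbfb replicate 3 was well under the other sgCbfb libraries (limma, Benjamini-Hochberg adjusted p = 7.1e-09). Replicate 2 of sgCont was well above the other controls. Its limma log2 fold change of 3.89 ran from 3.57 to 4.48 when single libraries were left out. *Erg*, an ETS factor needed to maintain stem cells, was 12.9, 16.2 and 9.98 CPM in sgCont and 68.3, 58.5 and 49.4 CPM in sgCbfb libraries. It was 4.50-fold higher, with no overlap (limma, Benjamini-Hochberg adjusted p = 2.6e-06). *Cd34*, the sialomucin of early progenitors, was 227, 247 and 243 CPM in sgCont and 562, 477 and 482 CPM in sgCbfb libraries, about 2.12-fold higher (limma, Benjamini-Hochberg adjusted p = 9.6e-08). *Lmo2*, the LIM-domain partner of TAL1 and GATA factors, rose from 13.4 ± 2.33 to 29.4 ± 3.45 CPM (SD of 3 libraries, p adjusted by Benjamini-Hochberg from limma = 0.001). The falls were *Mn1*, a transcriptional coactivator of myeloid leukaemia, from 159.6 to 79.3 CPM, and *Bcl11a*, a factor of lymphoid development, from 116 to 57.7 CPM. Both were close to the fold threshold: *Mn1* was not called without sgCbfb replicate 3 (-0.90 on the log2 scale), without sgCont replicate 1 (-0.96) or with median-of-ratios scaling (-0.9996), and *Bcl11a* without sgCbfb replicate 1 (-0.96) or sgCont replicate 2 (-0.79). Homeobox genes of progenitors were similar, with *Hoxa9* at 746 and 629.9 CPM and *Hoxa7* at 154 and 143 CPM.

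Marker lists of cell types that a progenitor culture could also hold were read in full. In the list of monocyte, macrophage and granulocyte genes, of the 28 genes tested out of 44, 6 were called higher and 3 lower, with a median log2 fold change of 0.40. Their summed level was 946, 1002 and 859 CPM in sgCont replicates 1 to 3 and 1734, 1797 and 1474 CPM in the sgCbfb replicates. The most abundant was *Fcer1g* in sgCont (206 CPM) and *Mrc1* in sgCbfb cells (472 CPM), and *Mrc1*, *F13a1* and *Ly6c2* together gained more than the sum did, so the other members summed lower. The rises included *Mrc1*, *F13a1*, *Ly6c2* and *Mpo*, the myeloperoxidase of granules, which was 5.80, 5.91 and 4.14 CPM in sgCont and 23.3, 17.4 and 9.57 CPM in sgCbfb libraries (limma, Benjamini-Hochberg adjusted p = 0.0023). The defining genes *Elane*, *Ctsg*, *Lyz1*, *S100a8*, *S100a9*, *Cd14* and *Csf3r* had no read in any of the 6 libraries, and 12 of the 44 genes in all did not. *Csf1r*, the receptor of the macrophage lineage, was at 0 and 1.58 CPM, *Lyz2* at 0.985 and 3.85 CPM, and *Adgre1* at 58.01 and 61.9 CPM without a call. *Ncf1*, a subunit of the phagocyte oxidase, fell from 117 ± 6.14 to 30.1 ± 6.26 CPM, and *Clec12a*, a myeloid lectin, from 110.3 ± 7.44 to 45.03 ± 3.66 CPM (SD of 3 libraries, p adjusted by Benjamini-Hochberg from limma = 2.6e-11 and 8.2e-08). *Lgals3*, for galectin-3, had means of 23.7 and 9.72 CPM, with overlapping groups. Its call was lost without sgCbfb replicate 1 (-0.89 on the log2 scale), without sgCont replicate 2 (-0.97) or without moderated variances. The part of these cell types in the result was not tested.

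Plasmacytoid dendritic cell genes had 3 calls higher and 4 lower of the 18 genes tested out of 24, with a median log2 fold change of -0.27, and 5 were called higher without sgCbfb replicate 3. Their sum was 1975, 2136 and 1620.1 CPM in sgCont and 1801, 1579 and 1230.4 CPM in sgCbfb replicates 1 to 3, with *Ccr9* and *Cox6a2* the most abundant in sgCont (534 and 534 CPM) and *Dntt* in sgCbfb cells (278 CPM). The falls were *Ly6d*, *Smim5*, *Ccr9* and *Cox6a2*, and the rises were *Ly6c2*, *Irf7* and *Dntt*, all of which are also expressed by lymphoid progenitors or induced by interferon. The defining receptor gene *Siglech* had means of 2.06 and 0.278 CPM, *Klk1* had no read, and *Tcf4*, their E-protein regulator, was at 195 and 259 CPM. The part of such cells in the falls was not tested.

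In the list of innate lymphoid and cytotoxic genes 6 of the 24 genes tested out of 37 were called lower and 1 higher, and the median log2 fold change was -0.69. Its sum was 764, 859.7 and 747 CPM in sgCont and 486, 502 and 465 CPM in sgCbfb replicates 1 to 3, and the most abundant was *Fcer1g* in sgCont (206 CPM) and *Id2* in sgCbfb cells (127 CPM). *Il18r1*, the IL-18 receptor chain of innate lymphocytes, was 57.8, 92.1 and 70.6 CPM in sgCont and 5.37, 5.90 and 4.79 CPM in sgCbfb libraries. It fell 13.7-fold (limma, Benjamini-Hochberg adjusted p = 1.1e-13). *Ctsw*, for the cathepsin W of cytotoxic cells, was 35.6, 39.3 and 32.6 CPM in sgCont and 3.28, 0.804 and 2.77 CPM in sgCbfb libraries, and fell 15.7-fold (limma, Benjamini-Hochberg adjusted p = 1.2e-11). The rise was in *Ccl5*, a chemokine of T and natural killer cells that interferon also induces, with 3 reads in the whole sgCont group. It was at 16.99, 26.8 and 21.2 CPM in sgCbfb replicates 1 to 3, a ratio of 81.1-fold, with a 95% counting interval from 27.7 to 400.5. *Zbtb16*, *Tbx21* and *Gzmb*, which mark mature innate or cytotoxic cells, were at 6.45, 0 and 0 CPM in sgCont cells, and 9 of the 37 genes had no read in the 6 libraries. What part such cells had in the falls was not tested.

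Of erythroid, megakaryocyte, mast and basophil genes 12 of 30 could be tested and 9 had no read in any of the 6 libraries. Of those tested 4 were called higher and 1 lower (2 lower without sgCbfb replicate 1), with a median log2 fold change of 0.99. The sum was 386, 345 and 372 CPM in sgCont and 1136, 959 and 994 CPM in sgCbfb replicates 1 to 3, with *Cd63* the most abundant in sgCont (164 CPM) and *Hbb-bt* in sgCbfb cells (863 CPM). *Hbb-bt* alone gained more than the sum did, so the other members summed lower. The rises were *Hbb-bt*, *Nfe2*, *Zfpm1* and *Lmo2*, while the defining genes *Pf4*, *Cpa3*, *Mcpt8* and *Car1* had no read, and *Gata1* was at 0.257 and 0.724 CPM. *Nfe2*, a subunit of the globin locus factor NF-E2, went from 5.82 ± 1.88 to 20.7 ± 5.50 CPM (SD of 3 libraries). The fall was in *Cd63*, a tetraspanin of granules and lysosomes in many cell types, from 164 ± 20.04 to 44.98 ± 4.27 CPM (SD of 3 libraries, p adjusted by Benjamini-Hochberg from limma = 1.8e-10). The part of these lineages in the rises was not tested.

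E proteins and their inhibitors set the threshold for lymphoid fate, and 2 of 11 tested genes in this list of 12 were called higher, 0 lower, with a median log2 fold change of 0.31. *Id1*, an inhibitor that binds E proteins and keeps them off DNA, was 2.90, 1.77 and 4.38 CPM in sgCont and 40.2, 60.1 and 51.9 CPM in sgCbfb libraries. It was nearly silent in the controls and 16.8-fold higher in sgCbfb cells (limma, Benjamini-Hochberg adjusted p = 2.8e-10). The other rise was *Lmo2*. The E-protein genes *Tcf3* and *Tcf12* were at 132 and 174 CPM in sgCont and 109.7 and 160.1 CPM in sgCbfb cells, and *Id2* was at 159.8 and 127 CPM. None of these 3 was called.

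Cytokine receptor genes were called higher in 6 cases and lower in 2 of the 35 genes tested out of 40, with a median log2 fold change of 0.21. The falls, *Il2rb* and *Il18r1*, are given above. *Il2ra*, the α chain of the IL-2 receptor known as CD25, was 1.32, 0 and 1.22 CPM in sgCont and 16.99, 35.9 and 14.6 CPM in sgCbfb libraries. It was hardly read in the controls, where 10 reads were counted, and 26.6-fold higher with sgCbfb (limma, Benjamini-Hochberg adjusted p = 1.8e-07). The α and β chains of this receptor thus moved in opposite directions, while the shared γ chain gene *Il2rg* was at 88.5 and 58.1 CPM without a call. *Il6st*, the signalling chain gp130 of the IL-6 family, was 42.5, 53.2 and 37.5 CPM in sgCont and 133, 136 and 106 CPM in sgCbfb libraries. It rose 2.82-fold (limma, Benjamini-Hochberg adjusted p = 3.8e-08). *Csf2rb2*, a β chain of the IL-3 receptor, rose 6.98-fold, from 2.16 ± 0.479 to 15.05 ± 1.78 CPM (SD of 3 libraries, p adjusted by Benjamini-Hochberg from limma = 5.6e-06). *Il6ra*, from 2.505 to 11.2 CPM, was called in the fit of all libraries but not without sgCbfb replicate 2, where neither group mean passed 10 CPM.

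Genes of adhesion, homing and chemokine reception had 6 calls lower and 3 higher among the 33 genes tested out of 36, where 1.65% and 2.67% of all genes were called, and their median log2 fold change of -0.06 was near the -0.01 of all genes. *Cdh1*, for E-cadherin, was 8.97, 31.6 and 14.6 CPM in sgCont and 1.19, 0.804 and 0 CPM in sgCbfb libraries. It fell to almost no reads, 27.6-fold lower (limma, Benjamini-Hochberg adjusted p = 2e-08), although sgCont replicate 2 was well above the other controls. *Ccr7*, a receptor for lymph node chemokines, fell from 23.4 ± 3.78 to 7.86 ± 2.18 CPM and *Itgb3*, for the integrin β3 chain, from 13.8 ± 2.83 to 5.44 ± 2.10 CPM (SD of 3 libraries, p adjusted by Benjamini-Hochberg from limma = 7.5e-06 and 0.0015). *Cd44*, the hyaluronan receptor used to stage early T progenitors, was 121, 118 and 117 CPM in sgCont and 341, 362 and 324 CPM in sgCbfb libraries. The sgCbfb libraries were all higher, by 2.89-fold (limma, Benjamini-Hochberg adjusted p = 1.5e-09). *Emb*, for the adhesion molecule embigin, rose from 80.2 ± 8.28 to 249 ± 17.5 CPM (SD of 3 libraries, p adjusted by Benjamini-Hochberg from limma = 4.6e-09), and *Cd34* is given above.

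Interferon-stimulated genes had the largest share of calls among the 19 lists. Of the 38 genes tested out of 42, 26 were called higher and 0 lower, against 2.67% and 1.65% of all genes tested. By limma with Benjamini-Hochberg adjusted p under 0.05 alone, 35 were higher and 1 lower. The median log2 fold change was 2.91, or 2.97 with the 4 genes without reads in one group set at their bound. The list holds antiviral enzymes, sensors of viral RNA and the transcription factors that interferon receptors act through. Its summed level was 919.9, 997 and 778 CPM in sgCont replicates 1 to 3 and 3133, 2053 and 1372 CPM in the sgCbfb replicates, with *Ifitm1* the most abundant gene of both groups, at 537 and 344 CPM without a call. The mean of *Ifitm1* thus moved against the called genes. It was 537 of a mean sum of 898 CPM in sgCont cells, so it weighs heavily in that sum. *Oas2* (chromosome 5, 120730333 to 120749853), an RNA-sensing oligoadenylate synthetase, had 1 read in the sgCont group and 65.6, 50.1 and 16.1 CPM in sgCbfb replicates 1 to 3, a ratio of 447-fold, with a 95% counting interval from 85.9 to 19032. *Usp18*, the protease that removes ISG15 from proteins and dampens interferon signalling, had no read in the sgCont libraries and 62.9, 26.5 and 14.1 CPM in the sgCbfb replicates. That is at least 43.01-fold higher, with the floor at 3 reads in each library. *Ifi27l2a*, a small mitochondrial protein gene, was 1.58, 1.48 and 0 CPM in sgCont and 147, 50.7 and 18.4 CPM in sgCbfb libraries. *Oasl2*, whose promoter window is shown above, was 0.263, 1.18 and 0 CPM in sgCont and 89.7, 34.1 and 17.9 CPM in sgCbfb libraries. *Irf7*, the transcription factor that amplifies the interferon response, was 2.90, 6.20 and 1.22 CPM in sgCont and 96.9, 58.99 and 34.01 CPM in sgCbfb libraries. For each of these 5 genes sgCbfb replicate 1 was the highest library and sgCbfb replicate 3 the lowest of its group, yet still above every control.

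That spread between sgCbfb libraries ran through the list. Summed OP9 stromal genes had the same order in them, 41.4, 21.98 and 7.30 CPM, and their part in the spread was not tested. All 26 called genes were highest in sgCbfb replicate 1, and 25 were lowest of the sgCbfb libraries in replicate 3. The highest sgCbfb library was 2.58 times the lowest in the median of the 26 genes, against 1.41 times in the median of the other 326 genes called higher, of which 111 were highest in replicate 1, 159 in replicate 2 and 56 in replicate 3. Without sgCbfb replicate 1, 23 of the 26 were still called. The 9 with the largest fold changes included *Rtp4*, a chaperone for receptors, from 3.63 ± 1.67 to 124 ± 52.00 CPM, *Trim30a*, an inhibitor of inflammatory signalling, from 3.05 ± 0.750 to 110.3 ± 77.5 CPM, and *Rsad2*, the antiviral enzyme viperin, from 0.877 ± 0.345 to 45.8 ± 10.3 CPM (SD of 3 libraries, p adjusted by Benjamini-Hochberg from limma = 5e-11, 4.7e-09 and 5.8e-10). *Oas3*, with 2 reads in the sgCont group, and *Ifit1*, with 1, had ratios of 192-fold, with a 95% counting interval from 46.7 to 1409, and of 287-fold, with a 95% counting interval from 49.4 to 11008. The receptor genes *Ifnar1* and *Ifnar2* were at 29.02 and 89.4 CPM in sgCont and 26.7 and 67.9 CPM in sgCbfb cells, and neither was called.

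**Figure D5:**
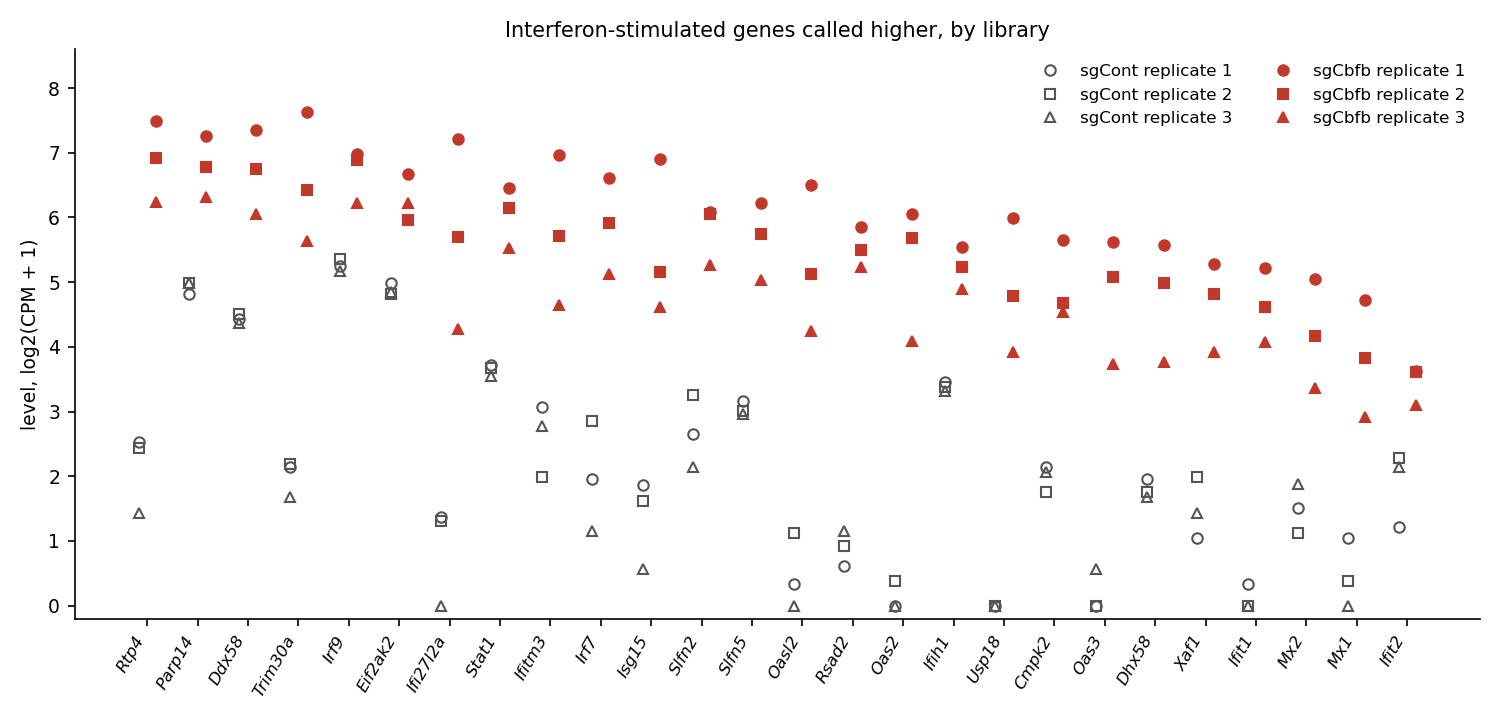
Level in log2(CPM + 1) (vertical axis) of the 26 interferon-stimulated genes called higher, ordered by their sgCbfb mean, in each sgCont library (open grey) and sgCbfb library (filled red), with a marker shape for each replicate number. Every red marker is above the grey markers of its gene, replicate 1 is the highest red marker for all 26 genes, and replicate 3 is the lowest for 25.

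In the first experiment 5 genes of the list were called higher of 35 tested and 0 lower. Of all genes tested there, 1.10% were called higher and 0.597% lower. The list had a median log2 fold change of 0.76, against 0.00 over all genes there. Its summed level was 1030.5, 1122 and 1069 CPM in sgCont and 1301, 1124 and 1230.3 CPM in sgCbfb LPs of replicates 1 to 3. The calls were *Rsad2* (1.65 and 18.3 CPM in sgCont and sgCbfb cells), *Trim30a* (3.85 and 20.5 CPM), *Rtp4* (9.53 and 29.2 CPM), *Ifitm3* (2.66 and 12.8 CPM) and *Slfn2* (7.81 and 27.98 CPM), the last named after its values were seen. *Oas2* was at 0.823 and 6.25 CPM there and *Usp18* at 0.197 and 0.708 CPM, neither of them called. The difference from the second experiment was not tested. Within the second experiment the sum was 1047, 1097 and 970.0 CPM in LPs with guides against *Ctcf* (sgCTCF) and 1107, 1085 and 1060.2 CPM in LPs with guides against *Med12* (sgMed12), both cultured and sorted alike. Tested directly, 25 genes of the list were called higher in sgCbfb than in sgCTCF cells and 25 higher than in sgMed12 cells, with none lower in either contrast. Over all genes sgCbfb against sgCTCF gave 446 calls higher, 3.38%, and 459 lower, 3.48%, and sgCbfb against sgMed12 gave 358 higher, 2.72%, and 232 lower, 1.76%. These contrasts share the sgCbfb libraries with the main one. Replicates 1 and 3 of sgMed12 stood apart, as mitochondrially encoded genes took 13.7, 8.44 and 11.2% of reads in the 3 sgMed12 libraries against 7.50, 8.03 and 7.94% in sgCont libraries, and without sgMed12 replicate 2 the lower count against sgMed12 was 348.

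Antigen presentation genes, many of which interferon induces, were called higher in 2 and lower in 1 of the 20 genes tested out of 23, where 2.67% and 1.65% of all genes were called, with a median log2 fold change of 0.32. The class I light chain gene *B2m* was 1050.5, 1165 and 975 CPM in sgCont and 2753, 1692 and 1266 CPM in sgCbfb libraries, above all controls and highest in sgCbfb replicate 1, though its log2 fold change of 0.77 was under the fold threshold (p adjusted by Benjamini-Hochberg from limma = 0.0019). *H2-Oa*, a class II modulator, rose from 11.03 ± 3.83 to 26.2 ± 2.01 CPM (SD of 3 libraries, p adjusted by Benjamini-Hochberg from limma = 0.00073). *Nlrc5*, the class I transactivator, was 5.80, 4.72 and 6.09 CPM in sgCont and 14.9, 15.8 and 7.30 CPM in sgCbfb libraries (limma, Benjamini-Hochberg adjusted p = 0.026). It was near both thresholds and was not called without sgCbfb replicate 1 or 2 or any of the sgCont libraries, where the Benjamini-Hochberg adjusted p of limma ran from 0.051 to 0.16. Its call was also lost with no filter on low values and without moderated variances. *Cd74*, the invariant chain, was 10.8, 21.3 and 14.9 CPM in sgCont and 5.66, 10.5 and 6.30 CPM in sgCbfb libraries (limma, Benjamini-Hochberg adjusted p = 0.0098). The call was lost, on p or on the fold threshold, without sgCbfb replicate 1, sgCbfb replicate 3 or sgCont replicate 2 (limma, Benjamini-Hochberg adjusted p = 0.059, 0.047 and 0.09). Unmoderated variances also ended the call of *Cd74*.

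Cell cycle genes had small changes, with 2 called higher and 0 lower of the 37 genes tested out of 37 and a median log2 fold change of -0.09. Of the 37, 8 had a positive fold change, and by limma with Benjamini-Hochberg adjusted p under 0.05 4 were higher and 4 lower. *Mki67* was at 729.7 and 789.9 CPM and *Top2a* at 2719 and 2645 CPM in sgCont and sgCbfb cells. The rises were in 2 inhibitors of cyclin-dependent kinases. *Cdkn2a*, the locus of p16 and p19Arf, was 12.9, 8.56 and 10.7 CPM in sgCont and 23.3, 38.1 and 29.2 CPM in sgCbfb libraries, without overlap (limma, Benjamini-Hochberg adjusted p = 0.00019). *Cdkn1c*, for p57, was 0.791, 1.77 and 0.487 CPM in sgCont and 11.6, 9.12 and 9.82 CPM in sgCbfb libraries (limma, Benjamini-Hochberg adjusted p = 0.0001), and with its sgCbfb mean just over 10 CPM it was not called without sgCbfb replicate 1. In the list of p53 targets, of the 23 genes tested out of 24, 0 were called in either direction by limma, and 3 had an adjusted p under 0.05 in the higher direction, while 1 was called higher without sgCbfb replicate 1 or without sgCont replicate 2 or 3. The median log2 fold change of this list was 0.01. Its summed level was higher with sgCbfb, at 996, 852 and 829 CPM in sgCont and 1175, 1228 and 1041 CPM in sgCbfb libraries. *Cdkn1a* was its most abundant gene, with a mean of 508 CPM over both groups. Genes of the OP9 stroma summed to 40.6, 8.56 and 3.41 CPM in sgCont and 41.4, 21.98 and 7.30 CPM in sgCbfb replicates 1 to 3, so replicate 1 of both groups had the most. Of the 12 genes tested out of 24 0 were called, the most abundant was *Fn1* in sgCont (5.05 CPM) and *Fstl1* in sgCbfb cells (5.58 CPM), and *Col3a1*, *Lum* and *Postn* had no read in these 6 libraries.

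A list of 18 T-signature genes was taken from the study, which chose the ones it shows with its own data in view. Those it compared between LPs and Notch-stimulated cells come from the first experiment, the only one with such cells. Others were shown with data that may include these samples, so the direction of the list is not taken as independent evidence. Of the 17 tested 4 were called higher and 2 lower, with a median log2 fold change of 0.63. In the first experiment 5 of 18 were called higher and 1 lower, with a median of 1.04, where 1.10% and 0.597% of all genes were called. *Il2ra*, *Nfe2* and *Zfpm1* rose, as did *Ifitm3*, a membrane protein that restricts viruses, at 7.38, 2.95 and 5.84 CPM in sgCont and 123, 51.2 and 24.2 CPM in sgCbfb libraries (limma, Benjamini-Hochberg adjusted p = 2.7e-06). *Ifitm3* also stands in the list of interferon-stimulated genes and had their order of libraries. *Lck* and *Thy1* fell, *Thy1*, a surface protein of T cells and stem cells, from 179.6 to 72.6 CPM. In the first experiment *Lck* was also called lower, while *Thy1*, at 187.9 and 149.5 CPM in sgCont and sgCbfb LPs, was not called.

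Named genes were also set beside the sgCTCF and sgMed12 groups, whose contrasts share libraries with the one described here. *Runx1* had a mean of 235 CPM in sgCTCF and 282 CPM in sgMed12 cells, against 598 CPM in sgCbfb cells (limma, Benjamini-Hochberg adjusted p = 1.2e-10 and 1.1e-08 for sgCbfb against each). *Mrc1* was at 3.41 and 4.76 CPM, as low as in sgCont cells. *Jchain* was at 1263 CPM in sgCTCF and 243 CPM in sgMed12 cells, on either side of its sgCont mean of 616 CPM. *Ly6c2* was at 80.04 CPM in sgCTCF cells, between its sgCont and sgCbfb means. *Dntt* was at 22.98 and 10.1 CPM, both under its sgCont mean of 30.6 CPM. *Cdh1* was at 106 CPM in sgCTCF cells, far above the 18.4 CPM of sgCont cells, and at 8.48 CPM in sgMed12 cells. *Il2ra* was at 2.07 and 1.42 CPM, and sgCbfb cells were above both (limma, Benjamini-Hochberg adjusted p = 5.5e-06 and 1.3e-06).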

How the data were processed

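QuantSeq 3' mRNA reads were measured in 24 libraries, 12 in each experiment. The authors name fastp for trimming and STAR for mapping to mm10, and scaled each library to 1e6 reads; versions and the strand setting of the counting are not stated. The deposited values carry the name TPM but are CPM: multiplied by each library's reads, 100.0% came out whole within 0.001 CPM, and no gene length enters, so levels of different genes are not compared per length. The authors' pooled means were not used. Whole reads were recovered from the values.

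Groups came from the labels. The 12 libraries of the second experiment were fitted together with limma 3.58.1 in R 4.3.3 (trend on log2(CPM + 1), 8 residual degrees of freedom), keeping genes that reached 1 CPM in 3 or more libraries, with Benjamini-Hochberg adjustment over all 13177. The first experiment was fitted alone. Plots were drawn with matplotlib 3.10.9, and tables with scipy 1.17.1, numpy 2.4.6 and pandas 2.3.3 under Python 3.11.15. Ratios with 1 to 3 reads in a group have exact Clopper-Pearson 95% intervals, and groups without reads are held at 3 reads per library. The fit was also run on simulated data, and no result given here rests on that run.

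Named genes are *Cbfb* and the *Runx* genes; the 12 genes called in each direction with the largest fold change, a symbol, reads in every library of the higher group and groups that do not overlap; the 6 with the largest difference in CPM; and up to 4 called members of each of 19 gene lists in each direction, with defining markers. The members and lists were chosen with earlier results of these data known. Of the 81 named genes, 27 share exon bases with a gene on the other strand in GENCODE M21, such as *Notch1* with *0610009E02Rik* (1068 bases). Deviations of same-number sgCbfb and sgCTCF libraries from their group means correlated at 0.1003, 0.1243 and 0.1334. These values pass a rule of every correlation over 0.1, the first only just, and are too weak to show that the libraries are pairs. The labels give no shared batch. Alternatives tried were edgeR 4.0.16 quasi-likelihood with TMM on the recovered reads, pseudocounts of 0.1 and 5, no filter or a stricter one, median-of-ratios scaling, totals without mitochondrial genes, the 2 groups alone, unmoderated variances, a replicate block, other thresholds and leaving out each library.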

Additional observations from a re-analysis of the deposited data

How the results depend on the processing

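Without a fold threshold the calls of sgCbfb against sgCont rose to 668 higher and 604 lower, those against sgCTCF to 1108 and 1152, those against sgMed12 to 1100 and 694, and those shared by both experiments to 190 and 112, since more genes can pass. A mean over 20 CPM in place of 10 gave 287 higher than sgCTCF and 138 lower than sgMed12, since fewer can. Without moderated variances 76 genes were higher in both experiments; the cause was not tested. The edgeR test called 354 genes higher and 218 lower, of which 351 and 218 were also called by limma. With the replicate number as a block the counts were 349 and 218. For sgCont with sgCbfb the numbers do not pair the libraries by the rule used (every correlation of same-number deviations over 0.1): they were 0.0465, 0.2156 and 0.1790, and replicate 1 of sgCbfb correlated better with another number. For sgCbfb with sgCTCF every one passed, and the block gave 445 higher and 460 lower.

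Leaving out each library in turn, the counts against sgCont ran from 296 to 357 higher and 204 to 228 lower, and the log2 fold change of *Cbfb* from -1.33 to -1.13. Calls against sgCTCF ran from 408 to 454 higher and 435 to 477 lower, those against sgMed12 from 312 to 421 higher and 203 to 348 lower, and those shared by both experiments from 79 to 146 higher and 52 to 91 lower. The lowest shared count, 79, was without sgCbfb replicate 1 of the first experiment; the cause was not tested. Of 1917 settings of named genes, 1879 kept direction and side of the threshold, 35 lost the call (11 with a mean over 20 CPM), 1 gained it (*Runx2* without a fold threshold) and 2 turned in sign. The latter were *Runx3*, not called in any setting, at -0.0026 without sgCbfb replicate 2 and -0.0035 without sgCont replicate 2, its lowest value, against 0.0522 without sgCont replicate 1, its highest. List counts moved by more than 1.5 times in 42 of 912 settings. The depth of these libraries puts genes under about 1 CPM out of reach, and genes near 10 CPM or a log2 ratio of 1 change their call with single libraries.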

Other observations

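Genes outside the lists also moved with sgCbfb, and the ones given here were chosen after their values were seen. *Syt1*, a calcium sensor of vesicle release, was 4.75, 2.66 and 0.974 CPM in sgCont and 49.2, 58.99 and 45.1 CPM in sgCbfb libraries, and *Ccn3*, a secreted matricellular protein, was 3.69, 4.43 and 2.68 CPM in sgCont and 62.6, 97.3 and 60.5 CPM in sgCbfb libraries. Both were low in every control library (limma, Benjamini-Hochberg adjusted p = 1.2e-07 and 9.2e-12). *Tcf7l2*, a TCF/LEF factor related to *Tcf7*, went from 4.70 ± 1.41 to 43.7 ± 6.42 CPM (SD of 3 libraries, p adjusted by Benjamini-Hochberg from limma = 2.6e-09), while *Tcf7* had no read with sgCbfb. *Hmga2*, a chromatin protein of fetal stem cells, went from 0.267 ± 0.0262 to 11.7 ± 4.09 CPM (SD of 3 libraries, p adjusted by Benjamini-Hochberg from limma = 2.9e-07). *H19*, an imprinted fetal long non-coding RNA, fell from 88.3 ± 19.96 to 7.70 ± 6.72 CPM (SD of 3 libraries, p adjusted by Benjamini-Hochberg from limma = 2.2e-07). *Pim2*, a survival kinase induced by cytokines, was 84.7, 86.5 and 65.7 CPM in sgCont and 5.37, 7.51 and 5.54 CPM in sgCbfb libraries, a 12.9-fold fall (limma, Benjamini-Hochberg adjusted p = 1.3e-13).

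Mitochondrially encoded genes took 7.50, 8.03 and 7.94% of the reads in sgCont and 6.76, 7.73 and 7.73% in sgCbfb replicates 1 to 3, so the sgCbfb replicate with the highest interferon-stimulated genes had the lowest share.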
